A study of Homo sapiens with 6 samples.

Results

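The genes described here are 9 of the 58051 in the count table: EIF4E, LRPPRC, CCND1, CCNE1, MYC, ODC1, PIM1, MCL1 and NBN. They are components and reported cargo mRNAs of the export route that joins the cap-binding protein eIF4E to the export receptor CRM1, and were found by matching Ensembl identifiers to gene symbols. RNA was measured by sequencing of ribosomal RNA-depleted total RNA from DLD-1 (human colorectal adenocarcinoma) cells. Both copies of TPR, which encodes a nuclear basket protein of the pore, carry in this line an auxin-inducible degron with NeonGreen, and the plant protein TIR1, which lets auxin trigger destruction of the tagged protein, is expressed from the RCC1 locus. The LMB group (3 libraries) received 200 nM Leptomycin B for 3 h, and the LMB+auxin group (3 libraries) received the same with 1 mM auxin during the last 2 h, as the series design states, while the sample titles name 2 h only. Leptomycin B blocks CRM1, so every library came from cells in which the export receptor of this route was inhibited, and all carry the tagged TPR allele. The comparison asks what the loss of TPR adds to the RNA levels of these genes when CRM1 is already blocked. A library without Leptomycin B was not analysed here, so the effect of the drug was not measured. The action of auxin itself and that of TPR loss cannot be told apart in this comparison, and no TPR protein was measured in these libraries. All libraries come from 1 cell line, and the RNA is of whole cells, so a transcript held in the nucleus and one in the cytoplasm count alike.

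In this route, eIF4E, best known as the protein that recruits capped mRNAs to the ribosome, binds mRNAs in the nucleus that carry a structured element in their untranslated region. LRPPRC holds eIF4E and that element together and links them to CRM1, whereas most other mRNAs leave through the receptor NXF1. The reported cargoes encode drivers of growth and survival: the cyclins D1 and E1 move cells from G1 into S phase, MYC is a transcription factor, ornithine decarboxylase (ODC1) starts polyamine synthesis, PIM1 is a serine/threonine kinase, MCL1 protects against apoptosis, and nibrin (NBN) belongs to the MRN complex of DNA break repair. EIF4E and ODC1 are textbook target genes of MYC, which binds with MAX to the E-box CACGTG, so this motif is shown for the members with a promoter sequence. The set of RefSeq promoters used here (GRCh38.p14) held a 300-base window for 5 members: EIF4E, LRPPRC, CCNE1, ODC1 and PIM1. That set had no entry for CCND1, MCL1, MYC and NBN, so their promoters were not searched. The search used the letters CACGTG alone, which read the same on both strands. EIF4E and ODC1 each held 2 matches, and the windows of LRPPRC, CCNE1 and PIM1 held none. Of 35116 promoter windows, 7.26% held at least 1 match and 0.664% held at least 2. The matches are printed below in the direction of the gene, with the E-box in capitals and the distance of its first base from the RefSeq start site, and they describe these letters only.
EIF4E, 225 bases upstream, chr4:98929341-98929370, minus strand: ctacccatcggcCACGTGaccagtcctttt
EIF4E, 72 bases upstream, chr4:98929188-98929217, minus strand: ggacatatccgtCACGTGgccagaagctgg
ODC1, 29 bases upstream, chr2:10448024-10448053, minus strand: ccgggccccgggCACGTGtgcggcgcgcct
ODC1, 6th base of the transcript, chr2:10447990-10448019, minus strand: ggcctgcggagaCACGTGgtcgccgagcgg

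Total counts ran from 28261903 to 35992425 per library. All 9 members were among the 16974 genes tested, with 894 to 25741 counts in a library. The epithelial markers EPCAM, CDH1, KRT8, KRT18, CDX2 and VIL1 were all detected, with a summed level of 6931 to 7035 CPM under LMB and 6851 to 7392 CPM with auxin (CPM is the count divided by the TMM-scaled library total and set to one common total). Each of 6 markers of leukocytes, fibroblasts and endothelial cells was at 0.797 CPM or less, with a summed level of 1.73 to 2.31 CPM under LMB and 1.72 to 2.05 CPM with auxin. Libraries of the same replicate number deviated together from their group means, so members were tested by edgeR in 2 fits, without and with the replicate number as a block.

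MCL1 was the lower and PIM1 the higher extreme among the 9 genes. With auxin, the mean level of MCL1 was 21.6% lower and that of PIM1 26.8% higher, while the other 7 members had log2 fold changes between -0.07 and 0.13. In bulk RNA, fewer cells with a transcript and less of it per cell cannot be told apart. A call needed both a Benjamini-Hochberg adjusted p under 0.05, taken over all tested genes, and a change of 1.3-fold or more in either direction. By the edgeR quasi-likelihood test 0 of 9 members were called, both without the block (1 gene called in all, 0.00589% of those tested) and with it (201 genes, 1.18%). Before adjustment, 2 members had a p under 0.05 in the fit without the block, PIM1 and MCL1, against 4.37% of all tested genes. With the block this number was 5 of 9 (EIF4E, LRPPRC, PIM1, MCL1 and NBN), against 19.9% of all tested genes. The adjusted p alone was passed with the block by PIM1, in the higher direction (1.11% of all tested genes), and by MCL1, in the lower direction (3.25%). DESeq2 and limma-voom passed these same 2 members with the block and none without it, where the adjusted p of MCL1 was 0.397 and 0.951 and that of PIM1 1.0 and 0.951.

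**Figure D1:**
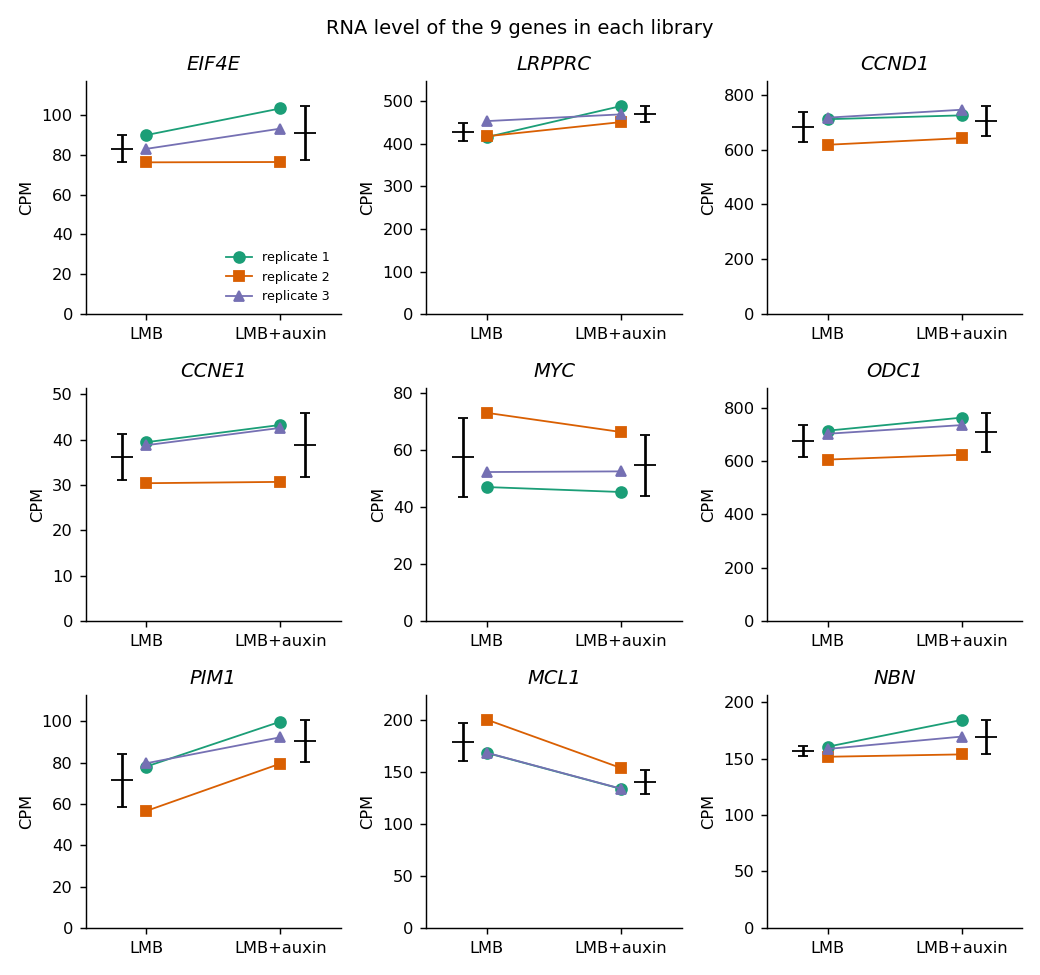
RNA level of the 9 genes in CPM (y axis, from 0) in each LMB and LMB+auxin library, with lines joining libraries of the same replicate number and black bars for mean ± SD (n = 3). MCL1 is the member whose groups do not overlap, from 169 to 201 CPM under LMB and from 134 to 154 CPM with auxin, while PIM1 is higher with auxin in each pair.

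MCL1 encodes a short-lived anti-apoptotic protein of the BCL2 family that holds BAK and the BH3-only proteins in check. The gene (ENSG00000143384) lies on chromosome 1 (GRCh38, 150560895 to 150579738, minus strand) and has 3 exons in its main transcript. Its level was 169, 201 and 169 CPM under LMB replicates 1, 2 and 3, and 134, 154 and 134 CPM with auxin replicates 1, 2 and 3. Every LMB+auxin library was below every LMB library, and replicate 2 was the highest in both groups. A lack of overlap in this direction was found for 6.63% of tested genes, and in the opposite direction, which no member showed, for 4.90%. The mean was 179.5 ± 18.5 CPM under LMB and 141 ± 11.5 CPM with auxin (SD, n = 3). This is a log2 fold change of -0.35 (SE 0.09, 95% interval from -0.554 to -0.146). By edgeR, its adjusted p was 0.954 in the fit without the block and 1.4e-08 in the fit with it, at a log2 fold change of -0.35 in both. The adjusted p with the block was 1.7e-08 by DESeq2 and 2.0e-07 by limma-voom. The difference was nearly the same in each pair, at -0.33, -0.38 and -0.33 on the log2 scale. The two-sided exact permutation test of log2 CPM gave p = 0.1, the smallest that 3 against 3 libraries allow. By size, 3.77% of tested genes had an absolute log2 fold change as large, and by its p with the block MCL1 ranked 18 of 16974. MCL1 shares 5.27% of its exonic bases with ADAMTSL4-AS1 on the same strand, which was at 4.41 CPM under LMB and 4.16 CPM with auxin, and 43 bases with ADAMTSL4 on the other, at 1.98 and 1.56 CPM.

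PIM1 encodes a serine/threonine kinase that promotes survival and needs no upstream kinase to become active. The gene (ENSG00000137193) lies on chromosome 6 (GRCh38, 37170152 to 37175428, plus strand) and has 6 exons. It shares no exonic base with another annotated gene of the count table. It was at 78.0, 56.5 and 79.6 CPM under LMB replicates 1, 2 and 3 and at 99.8, 79.5 and 92.2 CPM with auxin. The groups overlapped only where the lowest LMB+auxin library, replicate 2, met the highest LMB library, replicate 3. The mean was 71.4 ± 12.9 CPM under LMB and 90.5 ± 10.3 CPM with auxin (SD, n = 3). On the log2 scale the change was 0.34 (SE 0.13, 95% interval from 0.0437 to 0.641), with an edgeR adjusted p of 0.954. The blocked fit gave 0.35 (SE 0.05), and the adjusted p then was 3.9e-07 by edgeR, 5.5e-05 by DESeq2 and 5.3e-06 by limma-voom. The pairs differed by 0.36, 0.49 and 0.21 on the log2 scale, so that the spread between pairs was wider than for MCL1. The exact permutation p, from the same unpaired test, was 0.2, and 4.02% of tested genes had an absolute change as large. Without both libraries of replicate 3, the block gave PIM1 a log2 fold change of 0.43 and an edgeR adjusted p of 2.1e-04, which made it the 1 member called in that fit, and without both libraries of replicate 2 it gave 0.29 at 0.0078. Without the block, leaving out LMB replicate 2 alone took the log2 fold change of PIM1 to 0.21.

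The adaptors of the route, EIF4E and LRPPRC, did not pass the adjusted p in the edgeR fit without or with the block. EIF4E (ENSG00000151247, chromosome 4, 98879276 to 98929133, minus strand, 7 exons) was at 89.7, 76.1 and 82.8 CPM under LMB and 103, 76.3 and 93.0 CPM with auxin. Replicate 2 differed by 0.0032 on the log2 scale, whereas replicates 1 and 3 differed by 0.20 and 0.17, and the groups overlapped. EIF4E had a log2 fold change of 0.13 (SE 0.11; edgeR adjusted p, 0.954), and with the block the 95% interval ran from 0.0258 to 0.225 at an adjusted p of 0.136. Leaving out LMB+auxin replicate 1 gave EIF4E a log2 fold change of 0.030, and leaving out LMB+auxin replicate 2 gave 0.24. LRPPRC (ENSG00000138095, chromosome 2, 43886224 to 43996226, minus strand, 38 exons), which also stabilises mitochondrial mRNAs with SLIRP, was at 415, 417 and 453 CPM under LMB and 488, 450 and 468 CPM with auxin. LMB+auxin replicate 2 lay within the range of the LMB libraries and the other two lay above it. Its log2 fold change was 0.13 (SE 0.07), for which edgeR gave an adjusted p of 0.954 without and 0.0619 with the block. With the size factors of DESeq2 used in the blocked edgeR fit, the adjusted p of LRPPRC was 0.0447, at a fold change below 1.3.

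The cyclins, MYC, ODC1 and NBN did not pass the adjusted p in either fit. CCND1, encoding cyclin D1 (ENSG00000110092, chromosome 11, 69641156 to 69654474, plus strand, 5 exons), was at 710, 617 and 716 CPM under LMB and 724, 642 and 745 CPM with auxin. CCNE1, encoding cyclin E1 (ENSG00000105173, chromosome 19, 29811991 to 29824312, plus strand, 12 exons), was at 39.4, 30.4 and 38.8 CPM under LMB and 43.2, 30.7 and 42.6 CPM with auxin. In both cyclins replicate 2 was the lowest library of its group, and the gap between replicate 2 and the other replicates was wider than the difference between the groups. CCND1 had a log2 fold change of 0.05 (SE 0.08) and CCNE1 one of 0.10 (SE 0.14), at edgeR adjusted p-values of 0.966 and 0.958 (0.557 and 0.350 with the block). Without LMB replicate 2 the log2 fold changes were -0.013 and -0.0018, and without LMB+auxin replicate 2 they were 0.11 and 0.25. CCND1 shares 10.4% of its exonic bases with LTO1 on the opposite strand, which was at 98.2 CPM under LMB and 94.0 CPM with auxin.

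MYC (ENSG00000136997, chromosome 8, 127735434 to 127742951, plus strand, 3 exons) was the member with the widest spread. It was at 47.0, 73.1 and 52.3 CPM under LMB and 45.3, 66.3 and 52.5 CPM with auxin, with replicate 2 the highest in both groups. The log2 fold change was -0.07 (SE 0.18), and its 95% interval from -0.490 to 0.348 takes in a change past 1.3-fold downwards. With the block the interval narrowed to -0.171 to 0.0429, at an edgeR adjusted p of 0.527. Leaving out LMB replicate 2 gave 0.15, leaving out LMB+auxin replicate 1 gave 0.05, and leaving out LMB+auxin replicate 2 gave -0.23. ODC1 (ENSG00000115758, chromosome 2, 10439968 to 10448327, minus strand, 12 exons) was at 714, 606 and 702 CPM under LMB and 763, 624 and 735 CPM with auxin. Its log2 fold change was 0.07 (SE 0.09), at an adjusted p of 0.957 by edgeR, or 0.368 when blocked. The value for ODC1 was 0.0051 without LMB replicate 2, 0.011 without LMB+auxin replicate 1 and 0.15 without LMB+auxin replicate 2. NBN (ENSG00000104320, chromosome 8, 89924515 to 90003228, minus strand, 16 exons) was at 161, 152 and 159 CPM under LMB and 184, 154 and 170 CPM with auxin. For ODC1 and NBN alike, replicate 2 was the lowest library of each group and LMB+auxin replicate 1 the highest of all. NBN had a log2 fold change of 0.11 (SE 0.08), for which edgeR gave an adjusted p of 0.954, or 0.181 when blocked. It was at 0.043 on leaving out LMB+auxin replicate 1 and at 0.18 on leaving out LMB+auxin replicate 2. Of the exonic bases of NBN, 4.26% are shared with OSGIN2 on the opposite strand, which was at 35.8 CPM under LMB and 36.4 CPM with auxin.

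**Figure D2:**
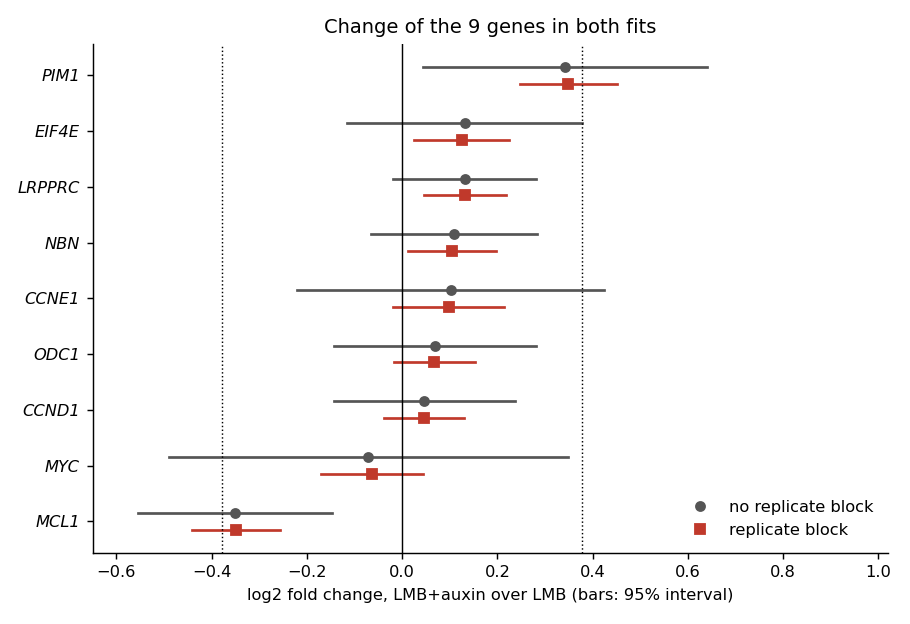
Log2 fold change of LMB+auxin over LMB (x axis) for the 9 genes, with 95% intervals from the edgeR fit without the replicate block (grey circles) and with it (red squares). Dotted lines mark 1.3-fold, and the estimates of PIM1 (0.34 and 0.35) and MCL1 (-0.35 in both) lie just inside them.

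As a group, 7 members had a positive log2 fold change and 2 a negative one, with a median of 0.10 beside -0.0027 over all tested genes and 0.0070 over the 12663 tested protein-coding genes. Higher in 3 of 3 pairs were 7 of 9 members, against 21.4% of all tested genes. Lower in 3 of 3 pairs was MCL1 alone, against 20.5% of tested genes. MYC was higher in 1 of 3 pairs. The median difference of the members was 0.13 in pair 1, 0.02 in pair 2 and 0.07 in pair 3, beside medians between -0.014 and 0.012 over all genes. Leaving out LMB+auxin replicate 1 took the median of the members to 0.03, and leaving out LMB+auxin replicate 2 took it to 0.16. Pair 2 had the smallest difference of the pairs for EIF4E, CCNE1, ODC1 and NBN, and the largest in size for PIM1, MCL1 and MYC. The genes were measured in the same libraries and are not independent replicates.

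The spread between replicate numbers is set here beside the difference between the groups. A range over 3 means of 2 libraries tends to exceed a difference of 2 means of 3 libraries by noise alone. The count that follows therefore does not say which of them varied the level more. The range between the means of the 3 replicate numbers was larger than the difference between the groups in 7 of 9 members, as it was in 13859 of 16974 tested genes, and LRPPRC and MCL1 were the exceptions among the members. The median range was 0.26 on the log2 scale for the members and 0.21 for all tested genes. Replicate 2 was the lowest of the 3 numbers in 7 of 9 members, against 42.8% of all tested genes, and it was the highest in MYC and MCL1. For MYC the range was 0.59, wider than in 93.9% of tested genes. What distinguishes the cultures behind the replicate numbers is not given in the labels, and its part in these levels was not tested.

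**Figure D3:**
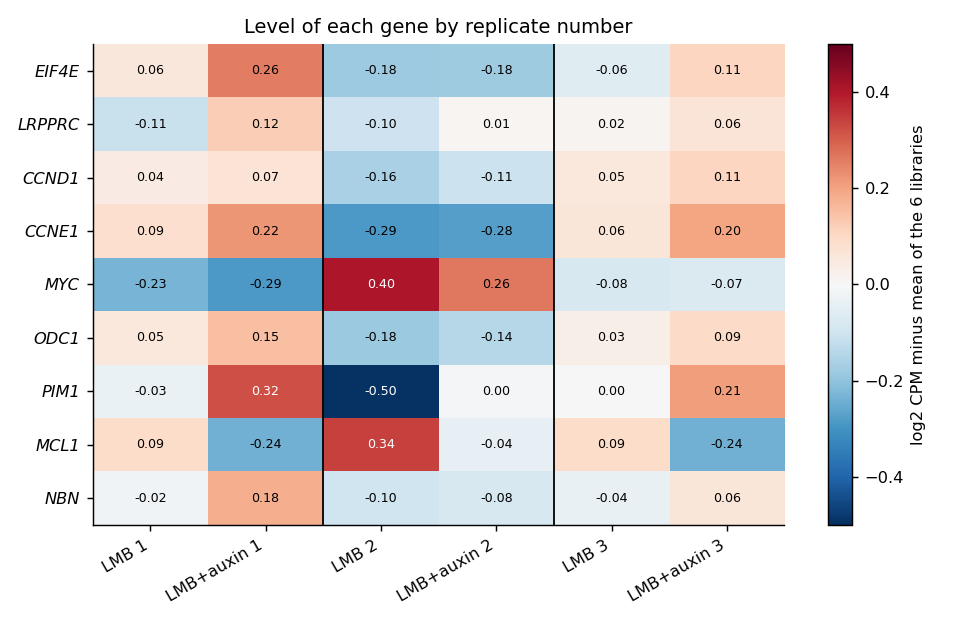
Level of each gene in each library as log2 CPM minus the mean of the 6 libraries (colour and printed value), with libraries placed in pairs by replicate number. Both replicate 2 libraries are below the mean for EIF4E, CCND1, CCNE1, ODC1, PIM1 and NBN and above it for MYC (0.40 and 0.26). PIM1 in LMB replicate 2 is the lowest entry at -0.50, while in LMB+auxin replicate 2 it is at -0.0043.

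Levels between genes were compared per length, as CPM per kb of the main transcript. In LMB, ODC1 was the most abundant at 272 ± 24.0 CPM per kb (SD, n = 3), followed by CCND1 at 160.7 ± 13.1 and LRPPRC at 64.8 ± 3.20. MCL1 came next at 45.4 ± 4.68, and EIF4E at 34.2 ± 2.81 and NBN at 34.0 ± 1.01 had overlapping ranges. PIM1 at 26.4 ± 4.77 was followed by CCNE1 at 18.5 ± 2.57 and MYC at 15.4 ± 3.70, whose ranges overlapped, while the ranges of all other neighbours in this order were separate. In LMB+auxin, MCL1 at 35.6 ± 2.92 and PIM1 at 33.5 ± 3.79 CPM per kb lay at the level of EIF4E at 37.4 ± 5.58 and NBN at 36.6 ± 3.31, and the ranges of these 4 genes overlapped. The order depends on the length used: per kb of all annotated exonic bases, LRPPRC was at 12.3 and NBN at 8.08 CPM per kb in LMB, below MCL1 at 28.8, PIM1 at 23.6 and EIF4E at 16.7.

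**Figure D4:**
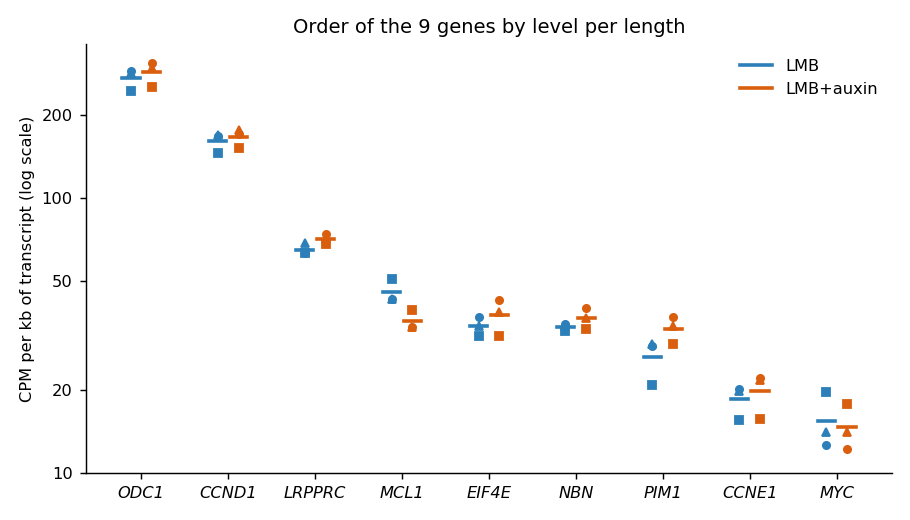
Level of the 9 genes as CPM per kb of the main transcript (log y axis), in the order of their LMB means, with 1 marker per library (circle, square and triangle for replicates 1, 2 and 3) and a bar at each group mean. ODC1 and CCND1 stand above the rest, and the LMB+auxin values of MCL1, EIF4E, NBN and PIM1 overlap.

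Further reported cargoes of eIF4E-dependent export had small estimated changes, some of them with wide intervals. Of 12 such genes, all tested, 0 passed the adjusted p in either fit, and the median log2 fold change was 0.02. The largest values were 0.13 for BCL2, an anti-apoptotic relative of MCL1, 0.09 for UCK2, a uridine-cytidine kinase, and 0.07 for CCNB1, the mitotic cyclin B1. BCL2 was at 4.23 CPM under LMB, and its 95% interval without the block ran from -0.344 to 0.601. The interval of BCL6, a further cargo of this list, ran from -0.377 to 0.446. Both intervals take in a change past 1.3-fold upwards. AKT1, MDM2 and CCNA2 had values of -0.06, -0.04 and 0.04. The 6 mRNAs taken as standing outside this route (ACTB, GAPDH, VEGFA, HPRT1, POLR2A and TBP) had a median of -0.05, and 0 of 6 passed in either fit. VEGFA had a log2 fold change of -0.17, TBP of 0.14 and POLR2A of -0.13, at edgeR adjusted p-values with the block of 0.109, 0.274 and 0.149.

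Among the 15 genes of the eIF4E family and its regulators, 0 passed the adjusted p in either fit, and the median log2 fold change was 0.04. The farthest were HHEX, a homeodomain protein that inhibits eIF4E, at -0.26 (SE 0.21), EIF4E3, an eIF4E homologue, at 0.17 (SE 0.19), and MKNK1, a kinase that phosphorylates eIF4E, at 0.08 (SE 0.12). HHEX was near the detection limit, at 2.24 ± 0.276 CPM under LMB and 1.86 ± 0.490 CPM with auxin (SD, n = 3). The partners of eIF4E in the cap-binding complex, EIF4G1 and EIF4A1, had log2 fold changes of 0.03 and 0.04. The inhibitors EIF4EBP1 and PML had values of 0.0048 and -0.06.

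Of the 12 genes of the CRM1 export machinery, 0 passed without the block, and 1 passed the adjusted p with it, in the lower direction. Of all tested genes, 3.25% passed in that direction with the block. XPO1, which encodes CRM1, was at 947 ± 60.0 CPM under LMB and 957 ± 109 CPM with auxin (SD, n = 3), a log2 fold change of 0.02. The gene that passed was NUP62, a nucleoporin of the central channel, at 78.5, 69.1 and 84.5 CPM under LMB and 70.9, 61.2 and 71.0 CPM with auxin. It was lower with auxin in 3 of 3 pairs, although the groups overlapped. In the blocked edgeR fit NUP62 had a log2 fold change of -0.19 (SE 0.05) at an adjusted p of 0.0132, below 1.3-fold. With the block its adjusted p was 0.0189 by limma-voom and 0.177 by DESeq2. NUP62 shares exonic bases with IL4I1 and a further annotated gene on the same strand and with ATF5 on the opposite strand. IL4I1 was at 10.1 CPM under LMB and 8.26 CPM with auxin, a log2 fold change of -0.30. The edgeR adjusted p of IL4I1 with the block was 0.0354. ATF5 and the further gene had log2 fold changes of -0.11 and -0.17, at edgeR adjusted p-values with the block of 0.38 and 0.19. RANBP2 and GLE1, which act on the cytoplasmic face of the pore, had log2 fold changes of 0.12 and 0.10, at edgeR adjusted p-values with the block of 0.0999 and 0.230.

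Of 29 partners of the cargo proteins, 0 passed the adjusted p without the block and 2 passed it with the block, PMAIP1 and PIM2, both lower. In that direction 3.25% of all tested genes passed with the block. PMAIP1 encodes NOXA, a BH3-only protein that binds MCL1 and promotes its breakdown. It was at 29.4, 37.1 and 26.6 CPM under LMB and 23.9, 25.2 and 23.7 CPM with auxin, with no overlap between the groups. PMAIP1 had a log2 fold change of -0.36 (SE 0.12), at an edgeR adjusted p of 0.954, which became 1.4e-04 with the block. With the block its adjusted p was 4.2e-04 by limma-voom and 0.0642 by DESeq2. The ratio of MCL1 to PMAIP1 CPM was 5.73, 5.41 and 6.36 in LMB and 5.61, 6.13 and 5.68 in LMB+auxin, so the ranges overlapped and the means of 5.84 ± 0.480 and 5.80 ± 0.283 (SD, n = 3) differed by less than the spread. This ratio restates the similar log2 fold changes of the separate genes. Of the other genes of the BCL2 family in this list, BCL2L1, BAX, BAK1, BCL2L11 and BBC3 had log2 fold changes of -0.12, -0.09, -0.13, 0.09 and -0.15, none past the adjusted p. A lack of overlap with auxin lower was found for 3 of the 29 partners, PMAIP1, PIM2 and BCL2L1. The share over all tested genes was 6.63%.

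PIM2, a kinase of the same family as PIM1, was at 14.5, 16.5 and 14.6 CPM under LMB and 13.3, 13.8 and 11.3 CPM with auxin. Every LMB+auxin library was below every LMB library, the opposite direction to PIM1. PIM2 had a log2 fold change of -0.25 (SE 0.11), and the edgeR adjusted p with the block was 0.0421. With the block it was 0.0543 by limma-voom and 0.450 by DESeq2. The third kinase of the family, PIM3, had a log2 fold change of -0.04. The ratio of PIM1 to PIM2 CPM was 5.40, 3.42 and 5.46 in LMB and 7.48, 5.75 and 8.18 in LMB+auxin, values that restate those of the separate genes. The partners of the other cargoes gave smaller values: the cyclin partners CDK4, CDK6 and CDK2 had log2 fold changes of 0.05, 0.0056 and 0.08, MAX and MNT of the MYC network -0.03 and -0.18, the antizyme OAZ1 -0.0060, and the MRN subunits MRE11 and RAD50 0.04 and 0.07. SLIRP, the partner of LRPPRC, had a value of 0.08.

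**Figure D5:**
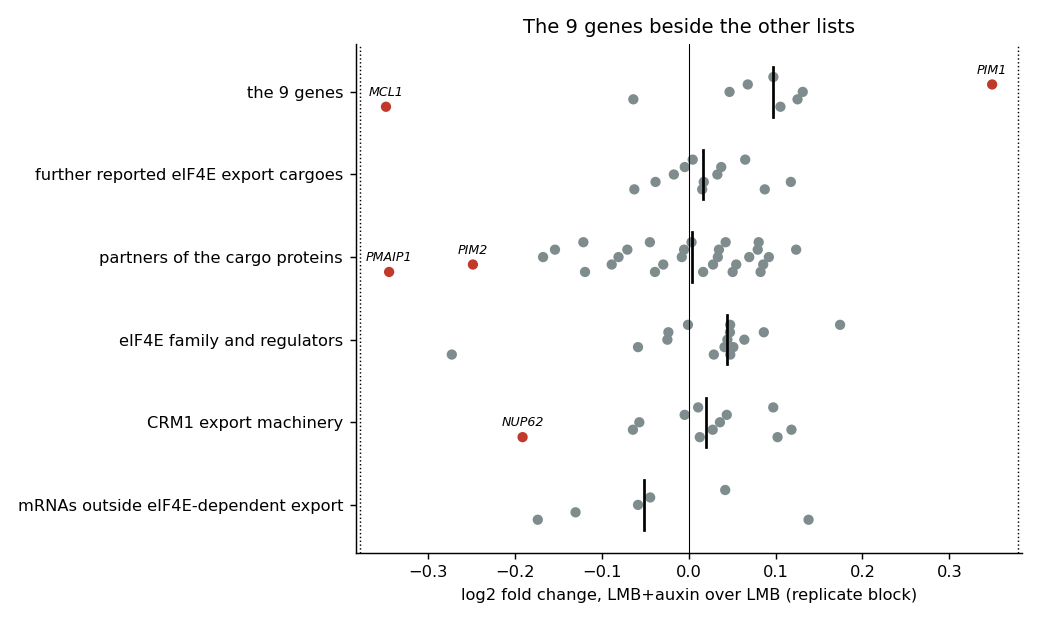
Log2 fold change of LMB+auxin over LMB from the edgeR fit with the replicate block (x axis) for the 9 genes and 5 further lists, 1 point per gene, with a black bar at each list median, dotted lines at 1.3-fold and red points for an adjusted p under 0.05. Outside the 9 genes, PMAIP1, PIM2 and NUP62 are the red points, all lower.

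The tested protein-coding genes whose log2 CPM followed EIF4E most closely over the 6 libraries were UBE2D3, PPID and IFRD1, with Pearson's r of 0.997, 0.996 and 0.995, and 396 of 12662 genes had an r over 0.95. Those closest to MCL1 were ZFP36L1, ETV3 and PHLDA1, with r of 0.991, 0.987 and 0.986, and 35 genes had an r over 0.95. These correlations are a description of 6 libraries that share 3 replicate numbers and 2 treatments.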

How the data were processed

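RNA of AID-tagged DLD-1 cells was depleted of ribosomal RNA by the authors, made into libraries with a stranded total RNA kit, and read from both ends. The submitters' processing notes name CASAVA 1.8.2, STAR 2.6.1c, featureCounts 1.5.2 and GRCh38. The deposited table holds raw counts for each Ensembl gene. The strand setting of the counting is not given in the sources used here, so reads in bases shared by overlapping genes, on either strand, may not be attributed to 1 gene. Groups were taken from the treatment in the labels, and the study describes its replicates as independent biological replicates.

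Symbols, coordinates and transcript lengths came from GENCODE 44 (GRCh38), in which 56948 of 58051 identifiers and all 95 list symbols were matched. The table held 18780 genes with no count. Genes with CPM above 1 in at least 3 libraries were kept (16974) and tested on counts with edgeR 4.0.16 (TMM scaling, robust glmQLFit, glmQLFTest) in R 4.3.3. Log2 fold changes are LMB+auxin over LMB. Alternatives were DESeq2 1.42.0, limma-voom (limma 3.58.1), other scalings, no filter on low counts, leaving out libraries, and the replicate number as a block. Over all tested genes, deviations from the group means correlated at 0.531, 0.691 and 0.273 between libraries of the same number in the labels and at -0.573 to 0.146 between different numbers, so the numbers were taken to pair the libraries. edgeR estimated a biological coefficient of variation of 0.0989, or 0.0406 in the blocked fit. Counts of replicates differed by more than sampling noise, with chi-square per degree of freedom from 5.35 to 40. Scripts were tested on simulated data. The log2 CPM values used a prior count of 2. The text names the 9 members, the genes of each further list that passed the adjusted p and the 3 of each list with the largest change, and the 3 protein-coding genes most like EIF4E and like the member with the largest change, and a few further genes of the lists were chosen after their values were seen. The members and lists were chosen with earlier results of these data known.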

Additional observations from a re-analysis of the deposited data

How the results depend on the processing

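The 9 members were recomputed under 22 alternatives, 13 planned and the others, which combine the block with a further choice, chosen after the data were seen. Of 198 member values, 4 changed sign, all without the block: CCND1 (-0.013), CCNE1 (-0.0018) and MYC (0.15) without LMB replicate 2, and MYC (0.05) without LMB+auxin replicate 1. Over the 6 fits that each leave out 1 library, CCND1 ran from -0.013 to 0.11, CCNE1 from -0.0018 to 0.25, MYC from -0.23 to 0.15, EIF4E from 0.030 to 0.24, LRPPRC from 0.10 to 0.17, ODC1 from 0.0051 to 0.15 and NBN from 0.043 to 0.18. MCL1 ran from -0.42 to -0.25 without the block and from -0.36 to -0.33 with it, and PIM1 from 0.21 to 0.43 and from 0.29 to 0.43. With the block both passed the adjusted p in 10 of 10 fits. Under the rule that also asks for 1.3-fold, the block on its own changed the call of 0 of 9 members.

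Members past the adjusted p numbered 0 without the block, 2 with no filter on low counts (edgeR adjusted p 0.0174 for MCL1 and 0.0412 for PIM1), 2 with the block and 3 with the block and DESeq2 size factors. With the block they numbered 2 by DESeq2, by limma-voom, with library size alone, with upper quartile scaling, with no filter and without any 1 pair. Members called numbered 0 except for PIM1 with the block without replicate 3 (1 call, log2 fold change 0.43). Leaving out 1 library moved the median of the members between 0.030 and 0.16.

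Over all genes, edgeR called 1 gene, 201 with the block, 39 with no filter and 0 with library size alone (737 genes had p under 0.05 before adjustment), while the DESeq2 count was 11. The edgeR count was 0 to 5 when 1 library was left out, each 0 standing beside 367 to 683 genes with p under 0.05 before adjustment. With the block the calls were 31 by DESeq2, 185 by limma-voom, 197 with DESeq2 size factors, 254 with library size alone, 234 with upper quartile scaling and 211 with no filter, and 133, 158 and 134 without pair 1, 2 and 3. PMAIP1, PIM2 and NUP62 passed the adjusted p in 8, 5 and 7 of 10 fits with the block.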
